A study of Homo sapiens with 9 samples.

Results

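The clustered replication-dependent histone genes were taken as all genes of the count table with a symbol of the forms H1-1 to H1-6, H2AC, H2BC, H3C or H4C with a number, which gave 59 of the 56541 genes. They comprised 4 linker histone H1 genes and 55 core histone genes, namely 15 of H2A, 16 of H2B, 10 of H3 and 14 of H4. RefSeq holds 69 genes with such names, and the other 10 were not analysed here. The libraries came from MOLM-13, an established human acute myeloid leukemia line, in 3 groups of 3 replicates. Total RNA was sequenced from shCONTROL cells, which carry a control short hairpin, and from shBCLAF1 cells, whose hairpin targets BCLAF1. BCLAF1 is a nuclear protein that binds RNA and works in transcription and splicing. RNA immunoprecipitation (RIP) recovered the RNA that came down with BCLAF1 from shCONTROL cells. Cells of every group, controls included, had received 4 days of doxycycline at 200 ng/µL. More cells went into each RIP sample than into each RNA-seq sample. The labels name no mock precipitation, so the RIP was set against the total RNA of the same cells, and both comparisons share the shCONTROL libraries. Nothing in the labels says that replicates were separate cultures, so p-values measure the spread between these samples, which may be technical.

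Histone genes of this kind are transcribed in S phase, when newly replicated DNA has to be packed into nucleosomes. They have no introns in their main form, and their mRNAs end in a conserved stem-loop bound by SLBP instead of a poly(A) tail, so that libraries made by removing ribosomal RNA, as here, can hold them where poly(A) selection would lose them. Core histones H2A, H2B, H3 and H4 form the nucleosome particle, and H1 binds the linker DNA between particles. NPAT at histone locus bodies drives their transcription, and a U7 snRNP with CPSF3 as the endonuclease cuts their 3′ ends.

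The members lay in 6 places. The largest group held 27 members at chr6:25726063-26285534, the next held 5 at chr6:27132316-27147562, and 16 lay at chr6:27807479-27893891. On chromosome 1, 8 members lay at chr1:149782689-149887965 and 2 at chr1:228457364-228458558, and H4C16 lay alone at chr12:14770720-14771131 (GRCh38.p14, RefSeq, the build the submitters' processing notes name as hg38). Promoter windows from 250 bases before to 50 bases after the start were given in RefSeq for 54 of the 59 members. One window per class is printed, because the classes differed in the motifs that these windows hold. The windows are H1-5 at chr6:27867539-27867838 (minus strand), H2AC11 at chr6:27132793-27133092 (plus strand), H2BC12 at chr6:27146809-27147108 (minus strand), H3C2 at chr6:26032050-26032349 (minus strand) and H4C8 at chr6:26285485-26285784 (minus strand). Capitals mark matches, on either strand, to the TATA box (TATAAA), the CCAAT box, the octamer (ATTTGCAT), an E2F-like stretch (GGGAAA), the H1 box (AAACACA) or the core of the H4 element (GGTCC). Overlapping matches run together.
H1-5: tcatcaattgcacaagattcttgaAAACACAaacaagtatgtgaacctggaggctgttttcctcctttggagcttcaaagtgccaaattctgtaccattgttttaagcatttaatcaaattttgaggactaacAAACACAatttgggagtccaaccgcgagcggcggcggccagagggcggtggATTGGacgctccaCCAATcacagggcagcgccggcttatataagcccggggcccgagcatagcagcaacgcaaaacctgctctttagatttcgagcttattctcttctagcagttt
H2AC11: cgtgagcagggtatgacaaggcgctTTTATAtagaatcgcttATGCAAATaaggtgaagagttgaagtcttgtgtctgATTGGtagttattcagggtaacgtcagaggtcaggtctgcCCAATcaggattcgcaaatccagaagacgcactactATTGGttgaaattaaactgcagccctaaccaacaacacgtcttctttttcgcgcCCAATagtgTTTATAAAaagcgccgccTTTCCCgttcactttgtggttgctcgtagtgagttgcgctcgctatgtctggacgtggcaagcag
H2BC12: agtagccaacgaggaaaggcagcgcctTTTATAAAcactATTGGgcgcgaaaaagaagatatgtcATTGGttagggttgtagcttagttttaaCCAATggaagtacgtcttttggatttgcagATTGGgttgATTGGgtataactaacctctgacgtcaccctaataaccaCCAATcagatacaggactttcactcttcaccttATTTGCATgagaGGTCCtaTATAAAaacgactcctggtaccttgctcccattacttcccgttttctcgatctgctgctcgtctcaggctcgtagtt
H3C2: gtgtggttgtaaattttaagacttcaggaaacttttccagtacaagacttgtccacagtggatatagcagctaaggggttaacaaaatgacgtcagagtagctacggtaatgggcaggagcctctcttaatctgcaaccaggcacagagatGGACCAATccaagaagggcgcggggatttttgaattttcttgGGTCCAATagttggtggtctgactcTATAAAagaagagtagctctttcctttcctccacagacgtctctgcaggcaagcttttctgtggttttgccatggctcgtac
H4C8: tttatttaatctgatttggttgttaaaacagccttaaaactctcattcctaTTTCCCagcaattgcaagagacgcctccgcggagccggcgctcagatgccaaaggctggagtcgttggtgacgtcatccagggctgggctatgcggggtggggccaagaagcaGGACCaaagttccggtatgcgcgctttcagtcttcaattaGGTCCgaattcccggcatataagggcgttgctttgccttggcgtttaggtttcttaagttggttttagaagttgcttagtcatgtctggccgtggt

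Matches were counted per member, and 3 members (H2BC5, H2BC12 and H3C4) had 2 windows, either of which could hold the match. The CCAAT motif was found in 14 of 14 H2A, 16 of 16 H2B, 8 of 8 H3, 4 of 4 H1 and 2 of 12 H4 members. Of all 35116 RefSeq windows of that length, 34.6% held it. The octamer, known as the site of POU2F1 in H2B promoters, was present in 11 of 14 H2A and 12 of 16 H2B members. It was in 1 of 8 H3 members and in no H1 or H4 member, against 1.77% of all windows. The H3 member was H3C4, whose start on the minus strand (chr6:26199293) is also that of H2AC7. Which of the 2 windows of H3C4 held the octamer is not given here. In H2BC12 the octamer began 46 bases before the start. AAACACA, known from H1 promoters, was in 4 of 4 H1 members and in 2 others of the 54 members with a window, against 5.64% of all windows. GGTCC, part of a known H4 promoter element, was in 11 of 12 H4 members but also in 46.3% of all windows. TATAAA was in 37 of the 54 members (11.5% of all windows) and GGGAAA in 19 (26.3%). AAACACA and GGTCC were chosen after the windows had been seen. Many H2A and H2B members share 1 promoter region, so their windows are not separate sequences, and a match describes letters, not a bound site.

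The target of the hairpin was measured first. BCLAF1 stood at 325, 329 and 313 CPM (counts scaled to a common library total, with TMM factors) in shCONTROL and at 116, 125 and 100.005 in shBCLAF1, which is 35.3% of control (log2 fold change -1.50, SE 0.08, Benjamini-Hochberg adjusted p = 0.000206 in the quasi-likelihood test of edgeR). In the RIP libraries its own RNA stood at 1134, 1053 and 1029 CPM. THRAP3, its close paralog, did not pass the test in the knock-down (0.08, adjusted p = 0.671) and was higher in the RIP (0.95, adjusted p = 0.000700). All 9 myeloid markers were present in every RNA-seq library at 23.9 CPM or more, but their levels were not alike. In the knock-down LYZ, CD68, SPI1 and CD33 were higher, MEIS1, HOXA9 and FLT3 were lower, and PTPRC and MPO did not pass. Of 10 markers of other cells, 7 were listed at 0 in all libraries and the highest, CD3D, reached 11.9 CPM. The libraries held between 25819144 and 36635268 estimated counts. A CPM is a share of the library, so a lower CPM in the RIP means a smaller share of the recovered RNA than of total RNA.

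Of the 59 members, 54 were above 0 in some library and 52 passed the filter on low counts in each comparison. H2AC1, H3C3, H4C7, H4C14 and H4C15 were listed at 0 in all 9 libraries. How reads matching more than 1 member were counted is not given in the sources used here, so a 0 need not mean a silent gene. H2BC3 had only 7 counts, in RIP replicate 3, and H3C15 only 9, in shCONTROL replicate 2. Together the members made up 1.32% of all counts in shCONTROL (mean, n = 3), 0.933% in shBCLAF1 and 0.328% in RIP. The RIP libraries were spread, at 0.266%, 0.285% and 0.433% for replicates 1 to 3.

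Per kilobase of gene length, which allows for unlike lengths, H1-5 was the highest member in shCONTROL at 1368 CPM per kb. H3C2 followed at 1187, H2AC11 at 1038 and H3C10 at 1035, the last pair with overlapping replicate ranges. The lowest of all was H3C15 (0.172 CPM per kb), which had counts in only 1 library. Among the tested members the lowest were H2BC6 at 16.6, H4C11 at 19.8, H2BC26 at 23.5 and H2AC25 at 27.0 CPM per kb. The limit on reads matching more than 1 member holds for this order too. Of the 46 neighbouring pairs in the order of 47 members no longer than 1000 bases, 34 overlapped in their replicate ranges, so most adjacent ranks are not resolved. In CPM, 43 members exceeded 100 in shCONTROL, and the 10 highest held 41.1% of the summed histone level.

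**Figure D1:**
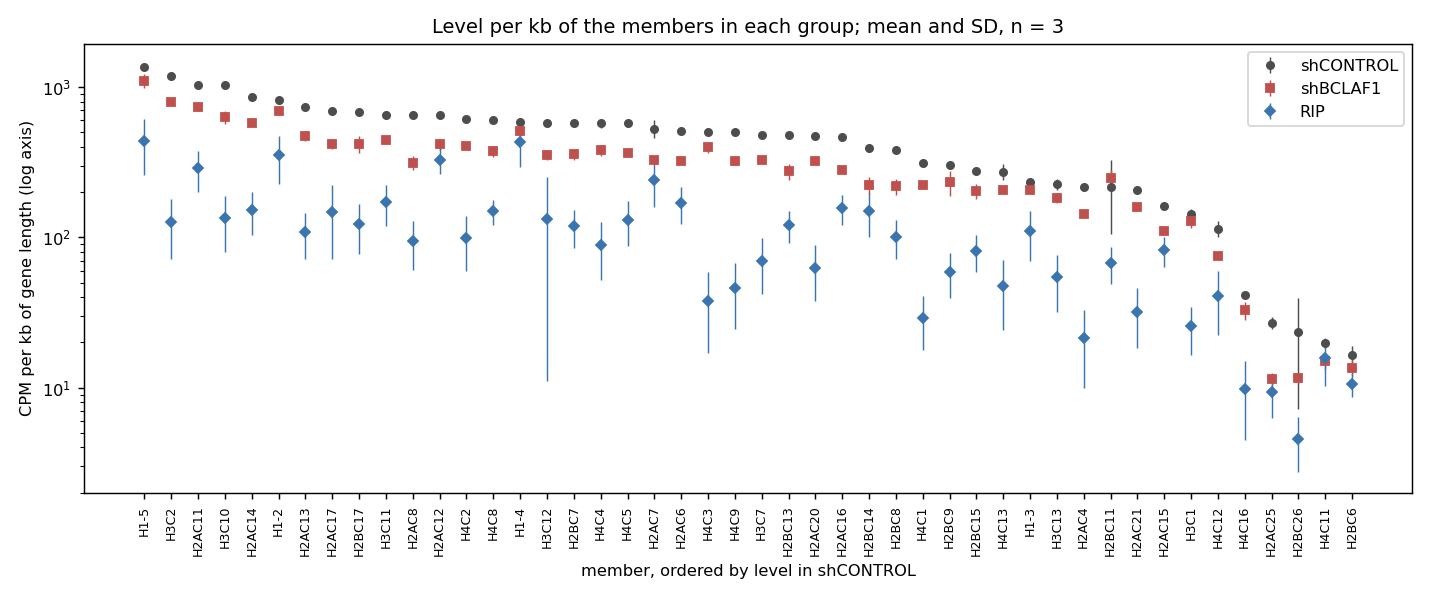
Level per kb of gene length (log axis) of 46 members, ordered by their level in shCONTROL; symbols are group means and bars the SD (n = 3). Most RIP means lie well below the RNA-seq means, while those of H1-4 and H4C11 lie near them; H3C15, at 0 in RIP, is not drawn.

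After knock-down of BCLAF1, histone RNA was lower in all 4 core classes. In shBCLAF1, 43 of the 52 tested members were lower than in shCONTROL and none was higher, where 16.9% of all genes tested were lower and 15.5% higher (edgeR quasi-likelihood test, adjusted p under 0.05). The members' median log2 fold change was -0.60, against 0.02 over all genes. All 14 H2A members fell, with 10 of 15 H2B, 7 of 8 H3, 10 of 11 H4 and 2 of 4 H1 members. The median was -0.64 for H2A, -0.70 for H2B, -0.57 for H3, -0.58 for H4 and -0.23 for H1. In 47 members every shBCLAF1 library was below every shCONTROL library, which held for 24.8% of all genes tested. Changes were moderate: only H2AC8 and H2AC25 passed with a log2 fold change of -1 or below, a rule met by 2.24% of all genes. With one fit of all 9 libraries, where the RIP libraries enter the estimate of spread, 15 members passed in place of 43, with a median of -0.61. They were 6 H2A, 7 H2B, 1 H3 and 1 H4 gene, and 7.57% of all genes were lower in that fit. No member was higher under any of the 13 alternatives run, DESeq2 included, or at an unadjusted p under 0.05, where the only member with a positive value, H2BC11, was at 0.20 (adjusted p = 0.730).

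Histone RNA was also a smaller share of the RNA recovered with BCLAF1 than of total RNA. Of the 52 tested members, 49 were lower in RIP than in shCONTROL RNA-seq and none was higher, against 24.7% of all genes lower and 24.6% higher. In 46 the adjusted p was under 0.05 and the log2 fold change -1 or below, a rule met by 13.5% of all genes. The median was -2.10, against -0.05 over all genes. It was -2.57 for H3, -2.52 for H4, -2.04 for H2A, -1.92 for H2B and -1.15 for H1. All 14 H2A and 8 H3 members were lower, with 14 of 15 H2B, 10 of 11 H4 and 3 of 4 H1. Replicate ranges did not overlap in 48 members (35.7% of all genes tested). Every tested member had a negative value, so the count of higher members was 0 at an unadjusted p under 0.05 as well, and it was 0 with DESeq2. Against a log2 fold change of 1 instead of no change, 31 members passed, beside 6.83% of all genes lower under that test. Since both comparisons use the shCONTROL libraries, their values are set side by side and no relation between them is given.

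**Figure D2:**
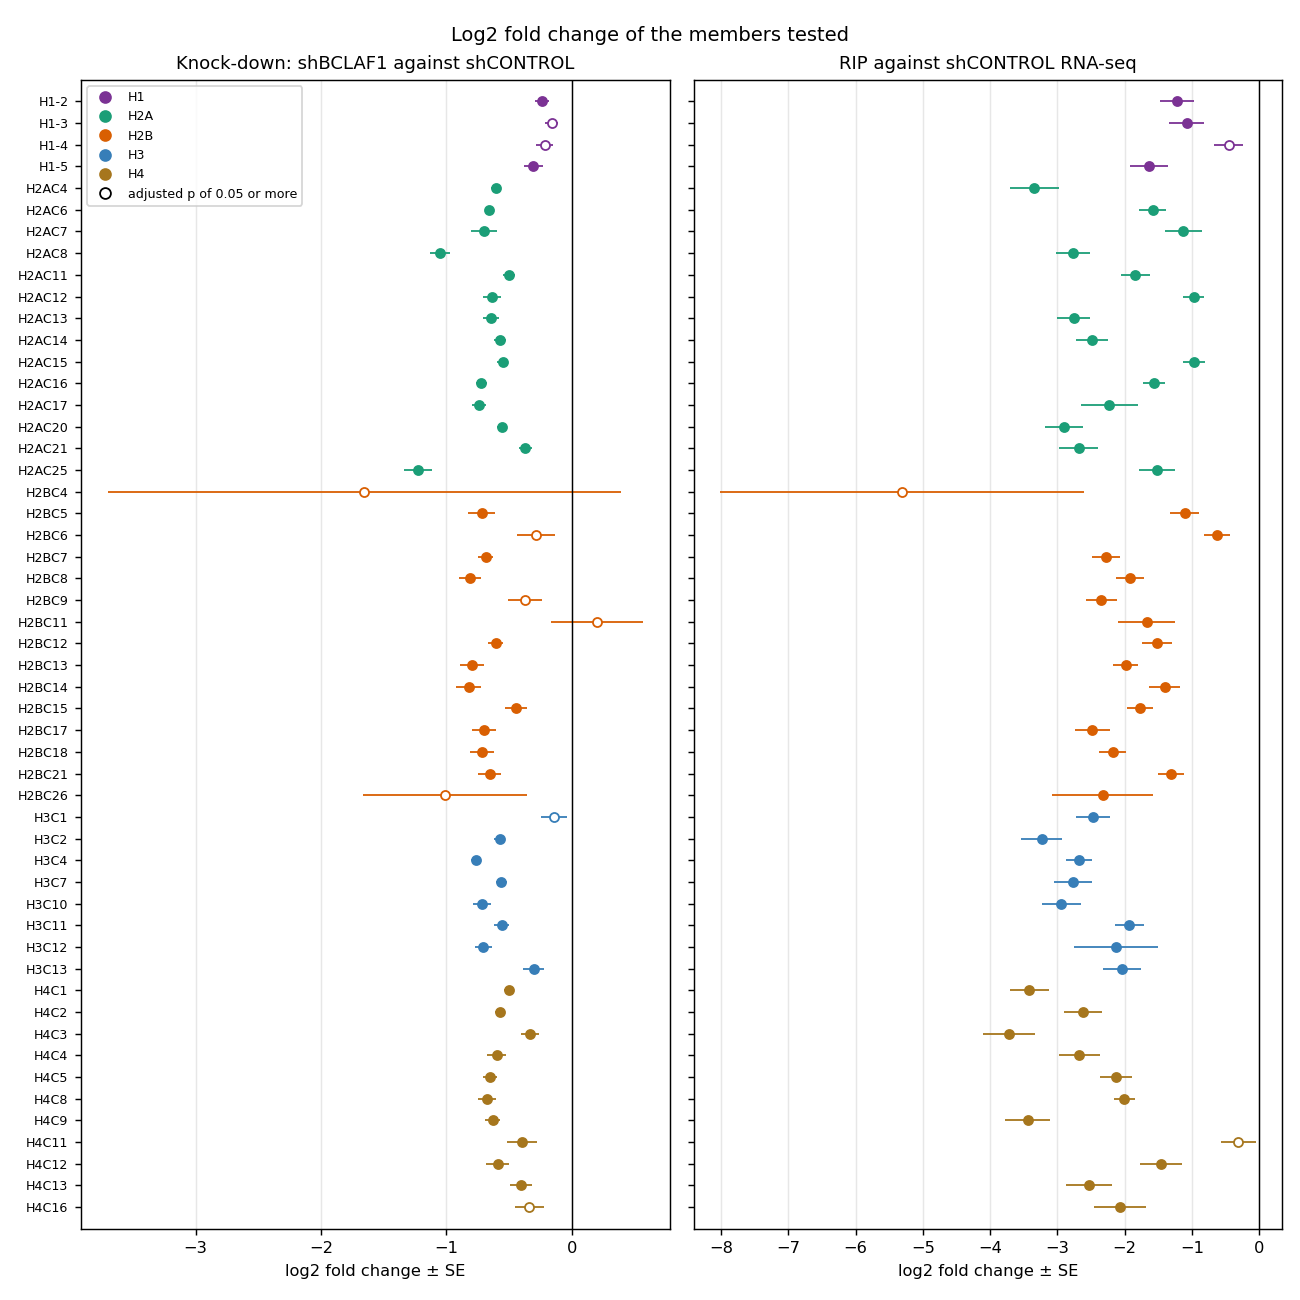
Log2 fold change with its SE for the 52 tested members, by class, in the knock-down (left) and the RIP (right); open circles did not pass at an adjusted p of 0.05. In the knock-down every point but H2BC11 lies below 0, and in the RIP every point does.

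Summed per class, the level in each library gave the size of the difference for each class as a whole. The H2A sum was 3553, 3536 and 3609 CPM in shCONTROL, 2372, 2211 and 2235 in shBCLAF1 and 749.6, 921 and 1119 in RIP. The H3 sum was 2549, 2504 and 2645 CPM, then 1709, 1591 and 1720, then 317, 310 and 637. In both classes the 3 groups did not overlap, and RIP replicate 3 was the highest RIP library. It was the highest for 49 of the 52 tested members. The members' median coefficient of variation (SD as a percentage of the mean) was 34.7% in RIP, 4.49% in shCONTROL and 7.61% in shBCLAF1. As a percentage of the shCONTROL mean, shBCLAF1 held 63.7% for H2A, 64.5% for H2B, 65.2% for H3 and 67.9% for H4, a narrow span beside 83.5% for H1. RIP held 26.1%, 29.6%, 16.4% and 16.9% for those core classes, in that order, and 44.0% for H1. Without RIP replicate 3 the RIP values were 23.4%, 25.005%, 12.2%, 13.4% and 35.2%.

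**Figure D3:**
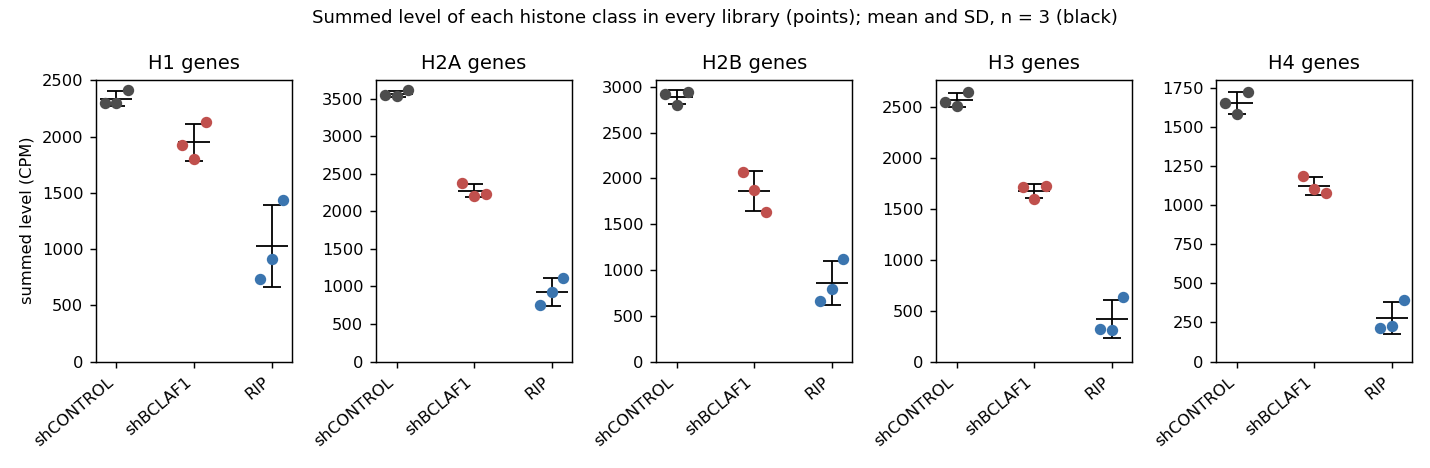
Summed CPM of each class in every library (points) with group mean and SD (n = 3, black), on axes starting at 0. The core classes in shBCLAF1 sit at 63.7% to 67.9% of control, and the RIP libraries are lowest in every class.

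The share of linker histone RNA among all histone RNA differed between the groups. H1 amounted to 21.5, 22.0 and 22.1 CPM per 100 CPM of core histone in shCONTROL, 26.2, 26.6 and 31.9 in shBCLAF1 and 37.9, 40.6 and 43.9 in RIP. The 3 groups did not overlap, and no p is given for a ratio of sums over chosen genes. H3 and H4 made up 19.7% and 12.7% of the histone level in shCONTROL but 11.7% and 7.88% in RIP.

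**Figure D4:**
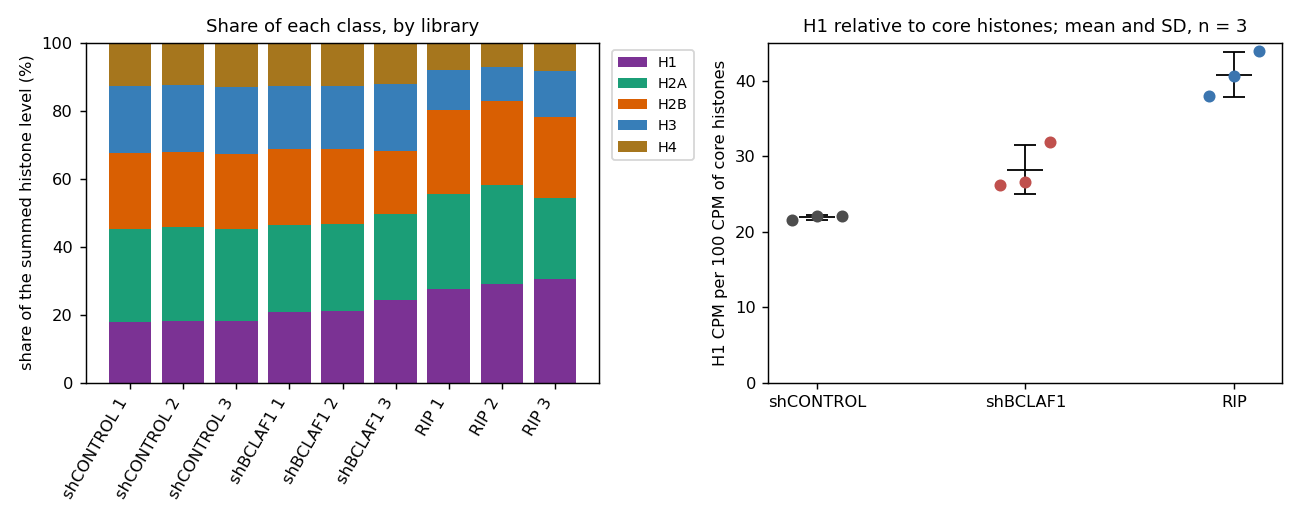
Share of each class in the summed histone level of every library (left) and H1 per 100 CPM of core histones with mean and SD, n = 3 (right). H1 takes 17.96% in shCONTROL, 22.0% in shBCLAF1 and 29.0% in RIP on average.

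H1-5, the highest H1 gene, was at 1075, 1062 and 1135 CPM in shCONTROL, 863, 802 and 977 in shBCLAF1 and 243, 295 and 507 in RIP. Each shBCLAF1 library was below each control (-0.31, SE 0.08, adjusted p = 0.0271) and each RIP library below those (-1.64, SE 0.28, adjusted p = 0.00428). H1-2, which also makes a polyadenylated mRNA, stood at 587, 597 and 621 CPM, then 507, 476 and 545, then 181, 233 and 357. Its knock-down value was -0.24 (adjusted p = 0.0230) and its RIP value -1.22 (adjusted p = 0.00812). The knock-down calls of both genes were lost in 7 of 13 alternatives each: total-count scaling, the single fit of 9 libraries, and leaving out any 1 library except shBCLAF1 replicate 3. Without 1 such library the adjusted p ran from 0.0560 to 0.0910 for H1-2 and from 0.0633 to 0.101 for H1-5. Over all 13 the fold changes stayed between -0.29 and -0.19 for H1-2 and between -0.39 and -0.25 for H1-5. No H1 gene passed with total counts, 3 of 4 passed with the replicate block, and all 4 passed with DESeq2. H1-4 was at 459, 452 and 482 CPM, then 384, 374 and 439, then 256, 300 and 456. Its RIP range overlapped the controls (-0.46, adjusted p = 0.132), and its rank per kb was 2 in RIP against 15 in shCONTROL. H1-3 passed in the RIP (-1.08, adjusted p = 0.0158) and not in the knock-down (-0.16, adjusted p = 0.0622). Its RIP call was lost without shCONTROL replicate 2 (adjusted p = 0.0515), and it passed in the knock-down with DESeq2 (adjusted p = 0.0174) and with a minimum mean of 50 counts (adjusted p = 0.0463).

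Among H2A genes the largest falls in the knock-down were those of H2AC25 (-1.22) and H2AC8. H2AC8 stood at 323, 346 and 338 CPM in shCONTROL, 179, 162 and 146 in shBCLAF1 and 37.0, 41.0 and 69.1 in RIP. The groups were far apart (knock-down -1.05, SE 0.08, adjusted p = 0.000397; RIP -2.77, adjusted p = 0.000542). H2AC6, which also makes polyadenylated mRNA, had 263, 262 and 272 CPM, then 170, 164 and 171, then 66.9, 82.9 and 115, and its spread within RNA-seq groups was small (-0.66, SE 0.04, adjusted p = 0.000200). H2AC4 was the most depleted H2A gene in the RIP (-3.34, SE 0.37), at 7.35, 8.16 and 18.1 CPM from 113, 114 and 117. H2AC12 and H2AC15 were the least, at -0.97 each. H2AC11, the highest H2A gene per kb, and H2AC14, H2AC13 and H2AC16 fell by 0.50, 0.57, 0.65 and 0.72 in the knock-down on the log2 scale.

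H2B genes held most of the members that did not pass in the knock-down. H2BC8 was at 186, 188 and 189 CPM in shCONTROL, 120, 107 and 93.9 in shBCLAF1 and 38.1, 44.7 and 65.6 in RIP (knock-down -0.81, SE 0.09, adjusted p = 0.00128). H2BC7 was at 272, 272 and 275 CPM, then 182, 171 and 155, then 41.6, 53.8 and 73.2 (-0.69, SE 0.06). For both genes every shBCLAF1 library was below every shCONTROL library. H2BC12, the highest H2B gene in CPM, and H2BC21, which both also make polyadenylated mRNA, fell by 0.61 and 0.65 on the log2 scale. In shBCLAF1, replicate 3 was the lowest library for 13 of the 15 H2B members and the highest for all 4 H1 members. H2BC4, H2BC6, H2BC9, H2BC11 and H2BC26 did not pass. H2BC11 had 160, 96.5 and 54.7 CPM in shCONTROL and 133, 123 and 101 in shBCLAF1, and H2BC26 had 13.8, 16.1 and 2.23 in shCONTROL. H2BC4 had 0.340, 27.3 and 0 CPM in shCONTROL. Such spread within the control group was not seen in the other tested members, whose coefficients of variation in shCONTROL were 30% or less, and the estimated counts of these 3 genes are therefore uncertain.

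H3 and H4 had the lowest class medians in the RIP. H3C4 was at 417, 409 and 418 CPM in shCONTROL, 249.8, 232 and 251 in shBCLAF1 and 50.7, 61.1 and 81.8 in RIP (knock-down -0.76, SE 0.04, adjusted p = 0.000202; RIP -2.68, SE 0.19, adjusted p = 0.000294). H3C2, the highest H3 gene, was at 602, 592 and 626 CPM, then 410.2, 389 and 421, then 49.4, 47.4 and 96.4 (RIP -3.23, SE 0.31), and its rank per kb went from 2 in shCONTROL to 17 in RIP. The groups did not overlap for either gene. H3C7 and H3C10 had RIP values of -2.77 and -2.94. H3C1 did not pass in the knock-down (-0.14, adjusted p = 0.347). H3C12 had 34.0, 30.03 and 139.8 CPM in RIP, while H2AC17, 1872 bases away, had 80.8, 104.4 and 31.3. RIP replicate 3 was thus the highest library for H3C12 and the lowest for H2AC17, and whether reads were divided differently between these neighbours was not tested.

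Most H4 genes encode the same protein, and the tested H4 members lay between -0.68 and -0.33 in the knock-down. H4C2 was at 237, 235 and 237 CPM in shCONTROL, 164, 156 and 156 in shBCLAF1 and 25.7, 34.0 and 55.2 in RIP (knock-down -0.58, SE 0.03, adjusted p = 0.000238; RIP -2.62). H4C8, whose window is printed above, was at 255, 234 and 248 CPM, then 168, 152 and 141, then 53.1, 55.5 and 74.7 (knock-down -0.68; RIP -2.003). H4C3 had the lowest RIP value of any member but H2BC4, at 10.4, 10.5 and 25.04 CPM from 201, 197 and 214 (-3.73, SE 0.39, adjusted p = 0.000758). All 3 fell in both comparisons without overlap. H4C9 and H4C1 had RIP values of -3.44 and -3.42, and H4C5 -2.13. H4C11, a low gene at 7.31, 8.26 and 7.53 CPM in shCONTROL, had 4.55, 5.27 and 8.67 in RIP, which overlapped (-0.31, adjusted p = 0.355). H4C16, outside the clusters, did not pass in the knock-down (-0.34, adjusted p = 0.0678) and was lower in RIP (-2.07, adjusted p = 0.00582).

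The members were also set out by their place in the genome. In the knock-down the median was -0.60 over the 27-member group (17 of 23 tested fell), -0.61 over the 5-member group (4 of 5), -0.62 over the 16-member group (16 of 16) and -0.56 over the 8 members on chromosome 1 (5 of 5). RIP medians were -2.35, -1.67, -1.96 and -2.18. Among members with a promoter window, from which the strand was taken, 10 pairs of 1 H2A and 1 H2B gene lay head to head. Their starts were 194 to 248 bases apart, so the partners share a promoter region. H2AC12, beside H2BC12, had no window, so whether these 2 form a further pair was not determined. Over all 10 pairs the median size of the difference between partners was 0.18 in the knock-down and 0.83 in the RIP. These include the pairs of H2BC4, H2BC11 and H2BC26, whose estimated counts are uncertain. In the knock-down, H2A minus H2B was 0.998, -0.70 and -0.21 in those pairs and from -0.24 to 0.25 in the others. H2AC20 and H2BC21 had RIP values of -2.90 and -1.32, and H2AC7 and H2BC7 of -1.13 and -2.27. H2AC7 overlaps H3C4, and H2BC12 overlaps H4C9, in RefSeq, and how the deposited counts divide such reads is not given in the sources used here. H2A and H2B members with the octamer in their window (21) had a knock-down median of -0.66, and the 7 without it -0.72. The RIP medians of these sets were -2.18 and -1.77, and the difference was not tested.

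**Figure D5:**
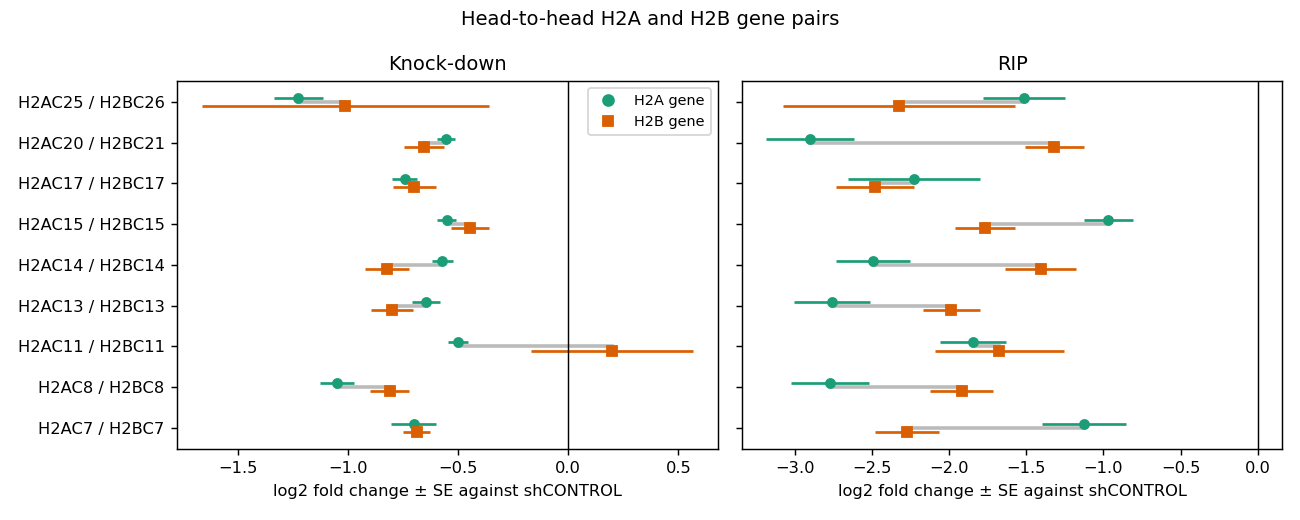
Log2 fold change with SE of the H2A (circle) and H2B (square) gene of each head-to-head pair in the knock-down (left) and the RIP (right); the pair H2AC6 and H2BC4 is not drawn because H2BC4 was near 0 in most libraries. The median distance between partners over all 10 pairs was 0.18 in the knock-down and 0.83 in the RIP, while H2AC11 and H2BC11 lie farther apart in the knock-down. The medians include the pairs of H2BC4, H2BC11 and H2BC26, whose estimated counts are uncertain.

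The 6 members well known for also making polyadenylated mRNA (H1-2, H2AC6, H2BC4, H2BC5, H2BC12, H2BC21) were set beside the others. In the knock-down 5 of the 6 fell, with a median of -0.66. Among core members, the median in the RIP was -1.52 for the 5 on that list and -2.23 for the other 43 tested, and in the knock-down -0.66 and -0.60. All 5 are H2A or H2B genes, and the 43 include every tested H3 and H4 member. RIP class medians were -2.04 for H2A, -1.92 for H2B, -2.57 for H3 and -2.52 for H4, so the 2 sets also differ in class. H2BC5 stood at 271, 259 and 287 CPM in shCONTROL, 185, 172 and 139 in shBCLAF1 and 86.6, 139.9 and 151 in RIP (RIP -1.10, adjusted p = 0.00702). The difference between these sets was not tested.

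Of 22 factors that transcribe histone genes or process their mRNAs, 10 fell and 2 rose in the knock-down (LSM10 0.31, MIF4GD 0.75), beside 16.9% lower and 15.5% higher over all genes tested. SLBP, which binds the stem-loop, went from 95.8 ± 4.14 CPM to 61.6 ± 1.39 (SD, n = 3; -0.64, SE 0.05, adjusted p = 0.000377). CPSF3 fell by 0.34 on the log2 scale (adjusted p = 0.00134), and NPAT did not pass (-0.18, adjusted p = 0.121). In the RIP 6 were higher and 6 lower, shares near the 24.6% and 24.7% over all genes. The values included GON4L at 1.78 and TUT7, which adds uridines to histone mRNA, at 1.35, and the median was 0.04. Of 31 S-phase and replication genes, 18 fell and 1 rose (CCNE2, 0.49) in the knock-down, with a median of -0.31, beside the same 16.9% and 15.5% over all genes. PCNA, the replication clamp, fell from 279.8 ± 15.3 to 143 ± 5.11 CPM (-0.97, adjusted p = 0.000200), and MCM6 of the replicative helicase fell by 0.82. In bulk RNA a smaller share of cells in S phase and less histone RNA per cell cannot be told apart, and the part of these genes in the histone result was not tested. In the RIP 21 of the 31 were lower and 2 higher (median -0.72), against 24.7% and 24.6% of all genes, with ASF1B at -1.72 and CCNE2 at -1.41.

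Genes of the replication-independent histone variants, which are also made outside S phase and mostly from polyadenylated mRNAs, changed in both directions in the knock-down. H2AZ2 (0.37), H2AJ (0.68) and CENPA (0.24) rose, and H1-10 (-0.67) and H2AZ1 (-0.31) fell. The H2AJ call was lost without shCONTROL replicate 1 (0.61, adjusted p = 0.0588) and that of H2AZ2 in the single fit of 9 libraries (adjusted p = 0.0593). In the RIP H2AJ (0.71) was higher and H2AZ2 (-0.57) lower. Leaving out shCONTROL replicate 1 took H2AZ2 to an adjusted p of 0.0507 in the RIP, and leaving out shCONTROL replicate 3 took it to 0.0508. Neither gene passed when the null was a log2 difference of up to 1.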

How the data were processed

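RNA was measured in 9 libraries of MOLM-13 cells (3 groups of 3), made from total RNA after ribosomal RNA removal and sequenced as stranded paired ends of 50 bases, per the labels. The authors deposited 1 table of estimated counts (expected counts) per gene, with no normalization; the submitters' processing notes name STAR 2.7.11b, StringTie 2.2.3 and hg38, with no role given. One row naming no gene (a value in 8 libraries, 2.18% to 3.75% of counts) was left out. Members and gene lists were chosen with earlier results of these data known.

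Each comparison was fitted on its own 6 libraries over all genes passing the default low-count filter (16961 in the knock-down, 16727 in the RIP) with edgeR 4.0.16 (R 4.3.3; TMM, prior count 2, quasi-likelihood F-test, Benjamini-Hochberg, threshold 0.05). CPM were TMM-scaled over all 9 libraries. A count of 3 equals 0.0819 to 0.116 CPM, which covers counting error only. Levels per kb used RefSeq gene length, for members up to 1000 bases, in place of the planned coding length. Genes named were the BCLAF1 check, up to 3 members per class and direction with the smallest adjusted p in each comparison, the 2 highest per class, the 6 polyadenylated members and 2 genes per list and comparison; others named in the text were picked after their values were seen. The scripts were tested on simulated counts. Alternatives used DESeq2 1.42.0, other scalings and filters, a replicate block and left-out libraries. One named result of the histone variant list is not reported here, so no counts are given for that list.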

Additional observations from a re-analysis of the deposited data

How the results depend on the processing

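Of 126 recomputed counts and class ratios, 124 stayed within 1.5 times or 1 SD of the reported value. Among those 124 are the counts of higher members, which were 0 in every setting of both comparisons and so add little. The exceptions were the members lower in the knock-down, 15 with a single fit of all 9 libraries (43 reported), and the members lower in the RIP, 31 when tested for a log2 difference beyond 1 (49 reported). The cause of the first was not tested; the second asks for a larger difference by construction. Members lower in the knock-down numbered 39 with total counts, 47 with DESeq2 and 38 to 42 with 1 library left out; in the RIP, 44 to 50 with 1 left out. Deviations from the group mean were only weakly correlated between same-numbered libraries (0.023, 0.0999 and 0.038 in the knock-down, and -0.028, 0.014 and 0.022 in the RIP). In the knock-down each library still correlated best with its own number. The labels give only the number, and whether such libraries were handled together was not tested. With a replicate block 44 members were lower in the knock-down and 48 in the RIP. Total-count scaling moved the median of all genes in the RIP from -0.05 to -0.16. Signs turned only for values near 0 or erratic genes. In the knock-down, THRAP3 ran from -0.011 (without shBCLAF1 replicate 1) to 0.20 (without replicate 3). H2BC4 was 0.25 with the replicate block and from -3.72 to 3.72 with 1 library left out, the last without shCONTROL replicate 2. TUT7 was 0.043 with total counts, and from -0.033 to 0.026 with 1 library left out. In the RIP, CPSF3 was 0.0010 with DESeq2 size factors, 0.0011 with DESeq2, 0.17 against both RNA-seq groups, and from -0.11 to 0.065 with 1 library left out. Low members such as H4C11 and H2BC6, under 10 CPM, are the most limited by depth.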
